A study of Mus musculus with 8 samples.

Results

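The cartilage matrix genes described here are *Acan*, *Comp*, *Matn1*, *Matn3*, *Matn4*, *Chad*, *Hapln1*, *Epyc* and *Prg4*. They were chosen by symbol in the NCBIM37 annotation, and all 9 were found among the 36536 genes with counts. Their RNA was measured in neonatal mouse cochlea, where the study set out to compare supporting cells at different ages. All groups came from *Lfng-GFP* BAC transgenic mice (B6;FVB-Tg(Lfng-EGFP)HM340Gsat/Mmucd), in which *Lfng* regulatory sequence drives GFP in most supporting cells (Deiters' and outer pillar cells, inner phalangeal cells and border cells). Cochleas at postnatal day 1 (P1) or 6 (P6) were dissociated and sorted without culture or treatment into a GFP- fraction and a GFP+ fraction of only the brightest cells, which gave 4 groups of 2 libraries. The GFP- fraction is a mixture of all cells without GFP. According to the methods the bony otic capsule was removed, and the lateral wall and stria vascularis were removed at P1 but only in part at P6, so the age of the GFP- cells and the tissue left in the dissection cannot be told apart. The labels do not say whether replicates came from separate animals, so the p-values measure only the spread between these samples, which may be technical.

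Cartilage matrix is built from a collagen network filled with aggrecan, a very large proteoglycan that hangs on strands of hyaluronan and holds water through its charged sugar chains. Link protein fastens aggrecan to hyaluronan, and smaller adaptor proteins such as the matrilins, COMP and chondroadherin tie proteoglycans, collagens and cells together. In the inner ear such matrix is known from the cartilage model of the otic capsule, but type II, IX and XI collagens are also made by the cochlear epithelium and fibrocytes, and the tectorial membrane is a collagen-rich matrix over the hair cells.

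The libraries held 17769024 to 67695039 counts on genes. The fractions carried the markers of their labels. Of 8 supporting cell markers, 7 passed the test as higher in GFP+ cells at both ages, and of 8 otic mesenchyme and fibrocyte markers 8 passed as lower at P1 and 7 at P6. Hair cell markers were also higher in the GFP+ fraction, with 7 of 8 past the test at both ages. A pair of libraries stood apart from their partners. The summed level of the mesenchyme markers was 3478 CPM (a gene's counts scaled to a library total on genes of 1e+06) in P6 GFP+ replicate 2 against 1010 CPM in replicate 1, and the 7 markers with counts in both were 2.76 to 5.42 times as high. The other marker, *Tbx15*, had 0 counts in replicate 1 and 43 in replicate 2. In P1 GFP- replicate 2 the summed level of 6 neuron markers was 483 CPM against 143 CPM in replicate 1. Values without these libraries are given beside the members and, for the counts of the lists of related and marker genes, together after them. What part these cell types had in the results was not tested.

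Of the 9 genes, 6 had a mean of at least 1 CPM in some group and 3 did not. *Acan*, *Chad* and *Epyc* were lower in GFP+ than in GFP- cells at both ages, and *Acan* and *Chad* rose with age in both fractions. Matrilin 4 was the member whose relation between the fractions changed with age. The plot of CPM by library shows all values.

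**Figure D1:**
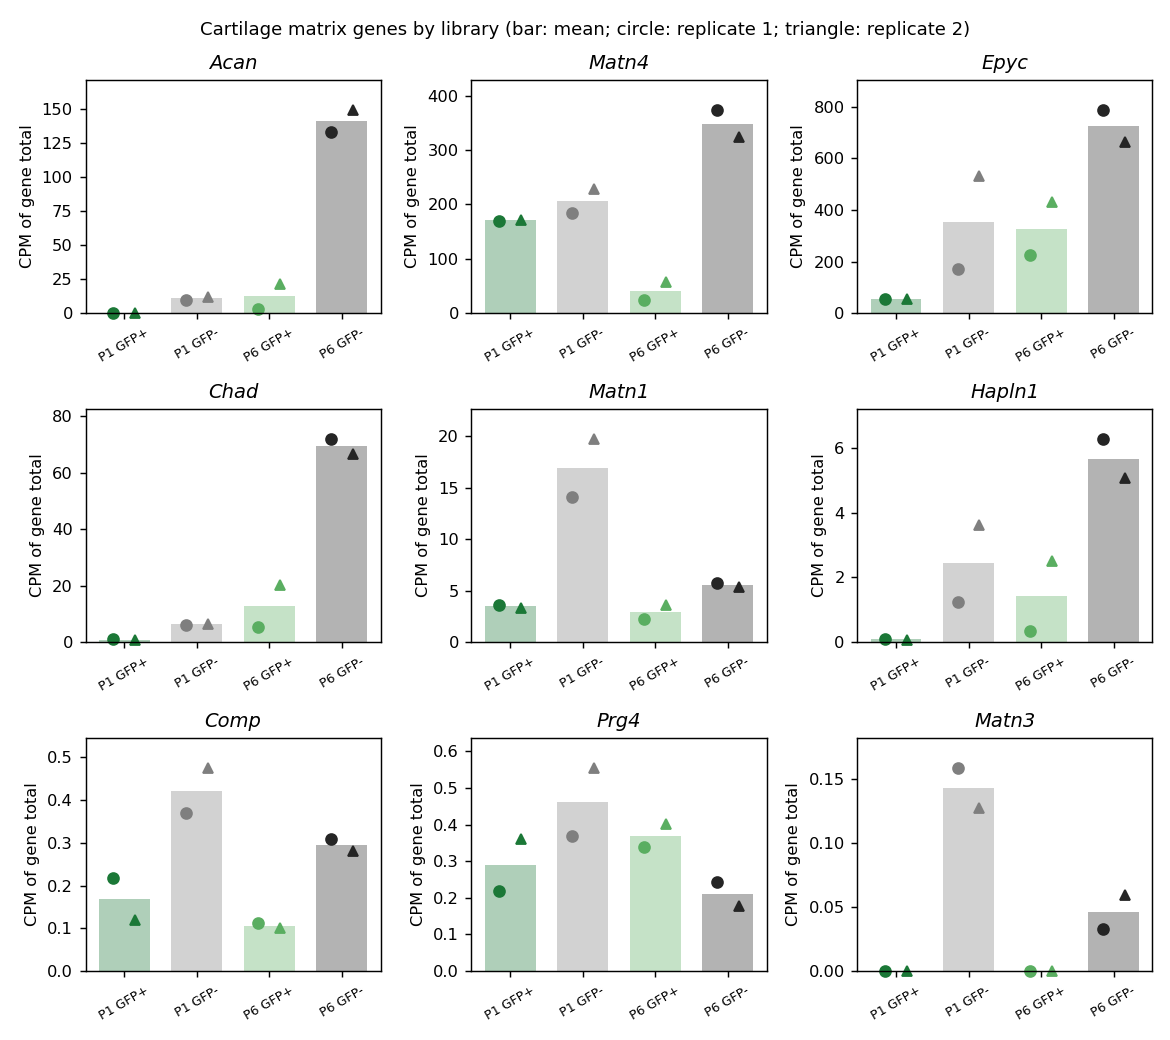
Level of each cartilage matrix gene in CPM in the 8 libraries, with a bar for the mean of each group and a point for each library (circle, replicate 1; triangle, replicate 2). Each panel has its own linear axis from 0. *Acan* and *Chad* are highest in both P6 GFP- libraries, *Matn4* is lowest in both P6 GFP+ libraries, and *Comp*, *Prg4* and *Matn3* stay at or under 0.555 CPM in all libraries.

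The 250 bases before the annotated starts of *Acan* and *Chad*, the pair that rose together, of *Epyc*, the most abundant member, and of *Matn4*, the member whose ratio changed with age, are shown 5' to 3' from RefSeq on GRCm38.p6, a later build than that of the counts. Capitals mark matches on either strand to TATAAA, the core of a TATA box, and to ACAATG or ACAAAG, letters bound by SOX proteins, so that CATTGT in capitals is a match on the other strand. Starts of a gene are numbered by coordinate.
*Acan* (chr7:79052976-79053225, plus strand): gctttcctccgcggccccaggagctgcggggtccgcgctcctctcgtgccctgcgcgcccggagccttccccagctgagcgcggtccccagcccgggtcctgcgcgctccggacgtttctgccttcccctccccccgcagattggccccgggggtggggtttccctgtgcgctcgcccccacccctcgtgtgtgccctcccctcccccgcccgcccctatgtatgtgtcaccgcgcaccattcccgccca
*Chad* (chr11:94564797-94565046, plus strand): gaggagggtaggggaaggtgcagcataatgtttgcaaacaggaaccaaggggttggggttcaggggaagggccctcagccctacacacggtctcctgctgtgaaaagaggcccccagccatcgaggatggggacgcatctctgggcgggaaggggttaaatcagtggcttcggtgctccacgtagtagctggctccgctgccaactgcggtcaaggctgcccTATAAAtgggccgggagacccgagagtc
*Epyc*, first start (chr10:97643818-97644067, plus strand): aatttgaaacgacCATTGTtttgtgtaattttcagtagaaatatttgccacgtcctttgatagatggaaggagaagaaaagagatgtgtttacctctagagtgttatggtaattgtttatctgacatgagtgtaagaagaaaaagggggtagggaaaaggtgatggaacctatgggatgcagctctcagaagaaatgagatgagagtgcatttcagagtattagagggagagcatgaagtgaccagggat
*Epyc*, second start (chr10:97646853-97647102, plus strand): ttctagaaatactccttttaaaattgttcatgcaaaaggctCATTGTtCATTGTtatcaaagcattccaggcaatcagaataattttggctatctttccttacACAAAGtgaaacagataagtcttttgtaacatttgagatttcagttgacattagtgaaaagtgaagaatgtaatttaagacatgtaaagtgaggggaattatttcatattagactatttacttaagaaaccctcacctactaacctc
*Matn4*, first start (chr2:164404819-164405068, minus strand): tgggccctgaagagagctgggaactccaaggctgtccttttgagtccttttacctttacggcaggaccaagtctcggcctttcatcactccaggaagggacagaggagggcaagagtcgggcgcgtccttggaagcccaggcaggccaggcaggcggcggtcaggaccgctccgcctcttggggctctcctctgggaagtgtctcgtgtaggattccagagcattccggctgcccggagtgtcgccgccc
*Matn4*, second start (chr2:164405161-164405410, minus strand): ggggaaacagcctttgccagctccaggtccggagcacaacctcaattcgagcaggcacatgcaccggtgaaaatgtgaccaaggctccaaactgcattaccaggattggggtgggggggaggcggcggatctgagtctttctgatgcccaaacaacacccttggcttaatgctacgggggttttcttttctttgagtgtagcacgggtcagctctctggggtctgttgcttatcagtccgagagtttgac
The *Acan* sequence holds none of these letters, has a GC content of 74.4% and 26 CpG dinucleotides, where the median of 32851 promoters was 52.4% and 6. *Chad* holds TATAAA 28 to 23 bases before its start, letters that 12.4% of all promoters hold. The *Epyc* windows hold 1 and 3 matches to the SOX letters, which 25.2% of all promoters hold at least once, and a GC content of 39.2% and 31.2%. In its second window a pair of matches on the other strand lie 209 to 204 and 202 to 197 bases before the start. The *Matn4* windows hold neither. A match is a description of the letters, and 7 of the 9 genes had an entry, the exceptions being *Comp* and *Prg4*.

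*Acan* (ENSMUSG00000030607, chr7:86198369-86259985, plus strand, coordinates of all genes in NCBIM37) encodes aggrecan. It had 0.284 and 0.402 CPM in the P1 GFP+ libraries, 9.76 and 12.0 CPM in P1 GFP- cells, 3.32 and 21.4 CPM in P6 GFP+ cells, and 133 and 149 CPM in P6 GFP- cells. The P6 GFP- libraries stood far above all others, and the P6 GFP+ libraries lay on both sides of the P1 GFP- values. The P1 GFP+ values rest on 13 and 10 counts. At P6 the mean was 141 ± 11.3 CPM in GFP- and 12.3 ± 12.8 CPM in GFP+ cells (SD, n = 2). Levels are given in CPM, while tests were run with edgeR's quasi-likelihood test on the raw counts with TMM scaling, and p-values were adjusted by the Benjamini-Hochberg method over all genes tested. A gene was called at an adjusted p below 0.05. By this test *Acan* was lower in GFP+ than in GFP- cells at P1, with a log2 difference of -4.92 (SE 0.28, adjusted p = 5.68e-05), and at P6, with -3.51 (SE 0.77, adjusted p = 0.0205). From P1 to P6 it rose by a log2 difference of 3.88 (SE 0.14, adjusted p = 5.13e-05) in GFP- cells and of 5.28 (SE 1.02, adjusted p = 0.0254) in GFP+ cells. Without P6 GFP+ replicate 2 the rise in GFP+ cells was 3.44, and the difference between the fractions at P6 was -5.39. The rise in GFP+ cells did not pass without P1 GFP+ replicate 2 (adjusted p = 0.0520), nor the P6 difference without P6 GFP- replicate 2 (adjusted p = 0.0609).

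*Chad* (ENSMUSG00000039084, chr11:94426361-94430441, plus strand) encodes chondroadherin, a leucine-rich repeat protein that binds collagen and chondrocyte surfaces. The gene lies within *Acsf2* on the other strand, with no exon bases in common. Its level was 1.07 and 0.683 CPM in P1 GFP+ cells, 6.18 and 6.50 CPM in P1 GFP- cells, 5.29 and 20.1 CPM in P6 GFP+ cells, and 71.9 and 66.7 CPM in P6 GFP- cells. The order of the groups was that of *Acan*, and again the P6 GFP+ libraries were far apart. *Chad* was lower in GFP+ cells by a log2 difference of -2.70 at P1 (SE 0.29, adjusted p = 0.000631) and of -2.45 at P6 (SE 0.56, adjusted p = 0.0235). With age it rose by 3.64 in GFP- cells (SE 0.13, adjusted p = 5.13e-05) and by 3.90 in GFP+ cells (SE 0.72, adjusted p = 0.0227). Without P6 GFP+ replicate 2 the rise in GFP+ cells was 2.65, and the difference between the fractions at P6 was -3.69. The rise in GFP+ cells did not pass without P1 GFP+ replicate 2 (adjusted p = 0.0648), nor the P6 difference without P6 GFP- replicate 1 (adjusted p = 0.0586) or replicate 2 (adjusted p = 0.0685). For neither *Acan* nor *Chad* did the ratio of GFP+ to GFP- cells differ between the ages by the test of the interaction (log2 difference of the ratios 1.41, adjusted p = 0.514, and 0.23, adjusted p = 0.899). Both of these values turn below 0 without P6 GFP+ replicate 2, to -0.46 and -1.03.

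*Hapln1* (ENSMUSG00000021613, chr13:89680241-89751437, plus strand) encodes link protein, the partner that locks aggrecan onto hyaluronan. It was far below *Acan* in the P6 GFP- cells, with 6.27 and 5.07 CPM there. The P1 GFP- libraries had 1.24 and 3.63 CPM, the P6 GFP+ libraries 0.338 and 2.51 CPM, and the P1 GFP+ libraries 0.0873 and 0.0803 CPM, which stand for 4 and 2 counts. The P1 GFP+ libraries lay below all others, and the P1 GFP- and P6 GFP+ ranges overlapped. *Hapln1* was lower in GFP+ cells at P1, by a log2 difference of -4.71 (SE 0.75, adjusted p = 0.00312). The difference was -1.93 at P6 and did not pass (adjusted p = 0.0933), although it passed when either P6 GFP+ library was left out (-1.15 without replicate 1 and -4.04 without replicate 2), and with the DESeq2 test (adjusted p = 0.0311). In GFP- cells the value at P6 was above that at P1 by a log2 difference of 1.39, which did not pass (adjusted p = 0.0799) but did with the DESeq2 test (adjusted p = 0.0175). In GFP+ cells the counts were too low for the age test.

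*Epyc* (ENSMUSG00000019936, chr10:97106702-97145088, plus strand) encodes epiphycan, a small leucine-rich proteoglycan named for epiphyseal cartilage. The antisense gene *Gm10754* shares 12.3% of its exon bases, and the library kit does not mark strand, so reads there cannot be assigned to one or the other. *Epyc* was the most abundant of the 9 genes in all groups but P1 GFP+. Its level was 53.8 and 55.6 CPM in P1 GFP+ cells, 172 and 533 CPM in P1 GFP- cells, 224 and 431 CPM in P6 GFP+ cells, and 787 and 664 CPM in P6 GFP- cells. Both P1 GFP+ libraries were lowest and both P6 GFP- libraries highest, while the P6 GFP+ values lay within the wide range of the P1 GFP- values. *Epyc* rose from P1 to P6 in GFP+ cells by a log2 difference of 2.67 (SE 0.31, adjusted p = 0.00775), and by 2.16 without P6 GFP+ replicate 2. It was lower in GFP+ than in GFP- cells by -2.58 at P1 (SE 0.50, adjusted p = 0.0066) and by -1.16 at P6 (SE 0.34, adjusted p = 0.0460). Without P6 GFP+ replicate 1 or 2 the difference at P6 was -0.73 or -1.68 and passed. Without P6 GFP- replicate 1 or 2 it was -0.97 or -1.29 and did not pass, and with library totals in place of TMM or all 8 libraries in the fit its adjusted p was 0.0576 or 0.0807. The age difference in GFP- cells, 1.24, did not pass (adjusted p = 0.105).

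The P1 GFP- libraries differed from each other for *Epyc* and *Hapln1* more than for the other members above 1 CPM. Replicate 2 was 3.11 times replicate 1 for *Epyc* and 2.93 times for *Hapln1*, against 1.05 to 1.40 for *Acan*, *Chad*, *Matn4* and *Matn1*. The 6 neuron markers were 2.55 to 4.02 times as high in replicate 2, with a median of 3.46. The 8 supporting cell markers were 0.825 to 2.52 times as high, with a median of 1.76. Medians were 1.19 for hair cell, 1.06 for Schwann cell, 0.987 for osteoblast, 0.874 for mesenchyme and 0.832 for blood and macrophage markers. The part of any of these cells in the levels of *Epyc* and *Hapln1* was not tested. Without P1 GFP- replicate 1 the age difference of *Epyc* in GFP- cells was 0.63, and without replicate 2 it was 2.26. For *Hapln1* these values were 0.82 and 2.37, and all 4 passed the test, in which the single library left is taken to vary like the other group. Without P1 GFP- replicate 1 and 2 the difference between the fractions at P1 was -3.21 and -1.56 for *Epyc* and -5.29 and -3.72 for *Hapln1*.

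*Matn4* (ENSMUSG00000016995, chr2:164215129-164230660, minus strand) encodes matrilin 4, the most widely expressed of the matrilins, which are adaptor proteins with von Willebrand factor A domains. It shares 2.88% of its exon bases with *Rbpjl* on the other strand. At P1 its level was 171 and 172 CPM in GFP+ cells and 184 and 228 CPM in GFP- cells. These ranges are close but do not overlap, and the log2 difference of -0.16 did not pass the test (SE 0.12, adjusted p = 0.292), but reached -0.34 and passed without P1 GFP- replicate 1. At P6 the level was 24.0 and 57.6 CPM in GFP+ cells and 373 and 324 CPM in GFP- cells. Every P6 GFP+ library lay below, and every P6 GFP- library above, all P1 libraries.

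*Matn4* thus fell in GFP+ cells, by a log2 difference of -1.98 (SE 0.39, adjusted p = 0.0266), and rose in GFP- cells, by 0.95 (SE 0.15, adjusted p = 0.00734). With all 8 libraries in the fit the rise was 0.98 and did not pass (adjusted p = 0.0914). At P6 it was lower in GFP+ than in GFP- cells by -3.11 (SE 0.42, adjusted p = 0.00560). This value was -3.84 without P6 GFP+ replicate 2 and -2.57 without replicate 1, and passed both times. The ratio of GFP+ to GFP- cells changed between the ages by a log2 difference of -2.96 (SE 0.47, adjusted p = 0.0110). It was the only member called in this test of the interaction, in which 6.38% of all 19233 genes tested were called in either direction, 2.79% lower and 3.6% higher. Without P1 GFP+ replicate 1, P6 GFP- replicate 1 or P6 GFP- replicate 2 the adjusted p of *Matn4* was 0.0526, 0.0622 or 0.0510, with a value of -2.95, -2.82 or -3.10. Without P6 GFP+ replicate 1 *Acan* (2.16), *Matn1* (1.51) and *Hapln1* (3.49) were called beside it. The fall in GFP+ cells was -2.71 without P6 GFP+ replicate 2 and -1.51 without replicate 1. The GFP+ libraries moved in the other direction for the mesenchyme markers, whose summed level was 328 and 315 CPM at P1 and 1010 and 3478 CPM at P6.

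*Matn1* (ENSMUSG00000040533, chr4:130500300-130511390, plus strand) encodes matrilin 1, a cartilage matrix protein that binds aggrecan and collagen fibrils. It had 3.62 and 3.33 CPM in P1 GFP+ cells, 14.1 and 19.7 CPM in P1 GFP- cells, 2.25 and 3.65 CPM in P6 GFP+ cells, and 5.72 and 5.38 CPM in P6 GFP- cells. Its highest level was in the P1 GFP- libraries, unlike that of *Acan* and *Chad*, and the GFP+ ranges of the ages overlapped. *Matn1* fell with age in GFP- cells by a log2 difference of -1.42 (SE 0.21, adjusted p = 0.00580), although without P6 GFP- replicate 2 the adjusted p was 0.0519. It was lower in GFP+ cells at P1, by -2.17 (SE 0.22, adjusted p = 0.000482). At P6 the difference was -0.91 and did not pass (adjusted p = 0.0805), but reached -1.28 and passed without P6 GFP+ replicate 2, and also passed with all 8 libraries in the fit (adjusted p = 0.0274). The interaction of *Matn1*, 1.26, did not pass (adjusted p = 0.101), but did with the DESeq2 test (adjusted p = 0.0271). In GFP+ cells the age difference was -0.14 (adjusted p = 0.776).

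*Matn3* (ENSMUSG00000020583, chr12:8954735-8978834, plus strand) encodes matrilin 3, which is largely restricted to cartilage. It had 0 counts in all 4 GFP+ libraries, 6 and 8 counts in the P1 GFP- libraries and 2 and 4 counts in the P6 GFP- libraries. These counts were below the minimum for testing in all comparisons. At P1 the GFP- mean of 0.143 CPM was at least 3.36 times the level that 3 counts over both GFP+ libraries would give, 0.0424 CPM, which covers counting error only. At P6 the mean in GFP- cells, 0.0458 CPM, was under that limit, and no ratio was taken.

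*Comp* (ENSMUSG00000031849, chr8:72897447-72905964, plus strand) encodes cartilage oligomeric matrix protein, a member of the thrombospondin family found in cartilage and tendon. It had 10 and 3 counts in the GFP+ libraries at P1 and 2 and 3 at P6. The GFP- libraries had 14 and 30 counts at P1 and 19 each at P6, and lay above the GFP+ libraries of their age. In CPM both fractions stayed between 0.100 and 0.475. *Prg4* (ENSMUSG00000006014, chr1:152296542-152313295, minus strand) encodes lubricin, the lubricating proteoglycan of joint surfaces, and shares 4.70% of its exon bases with *Tpr* on the other strand. It had 6 to 35 counts in the 8 libraries, between 0.177 and 0.555 CPM. Neither gene was called in a comparison in which it was tested, with log2 differences between the fractions of -1.13 at P1 and -1.47 at P6 for *Comp* (both adjusted p = 0.105), and of -0.65 and 0.82 for *Prg4* (adjusted p = 0.292 and 0.256). In GFP- cells the age differences were -0.34 for *Comp* (adjusted p = 0.619) and -0.96 for *Prg4* (adjusted p = 0.211).

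**Figure D2:**
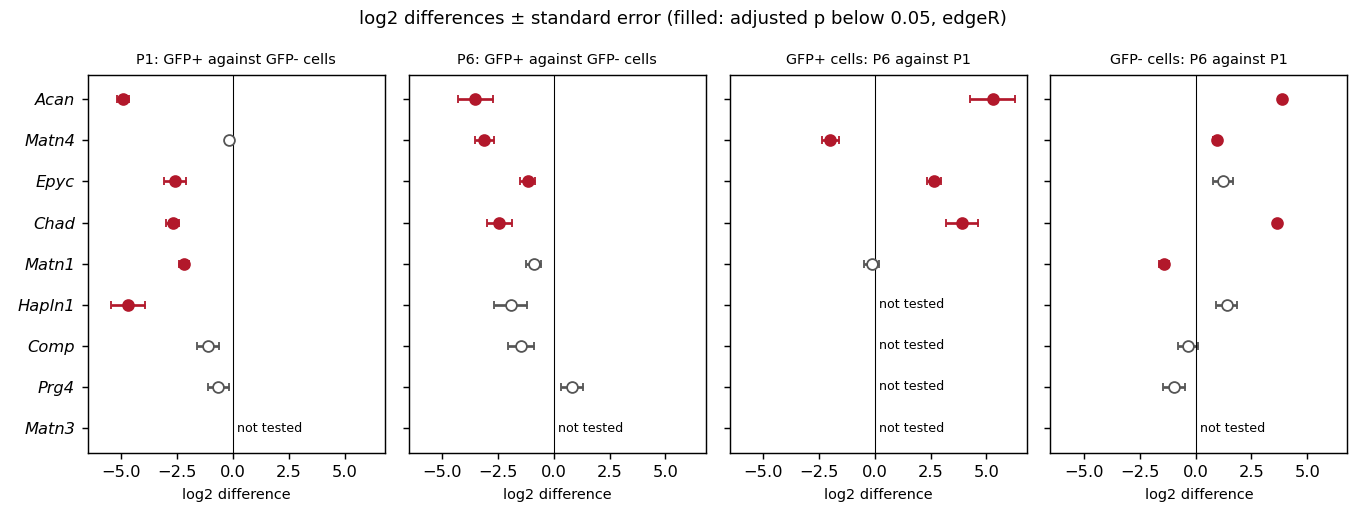
log2 differences ± standard error of the cartilage matrix genes in the 4 comparisons of groups by edgeR (2 libraries per group), with filled points for adjusted p below 0.05 and open points for the others. No member is called as higher in GFP+ cells at either age, and *Matn4* lies near 0 at P1 and at -3.11 at P6.

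Counted together, 5 of the 8 members tested were lower in GFP+ than in GFP- cells at P1 and 0 were higher, where 28.1% of the 18682 genes tested were lower, 25.5% higher and 53.6% called in either direction. The median log2 difference was -2.38 over the members and 0.0075 over all genes tested. At P6, 4 of 8 were lower and 0 higher, against 17.9% and 15.5% of 18294 genes (33.5% in either direction), with medians of -1.70 and -0.017. Without P6 GFP+ replicate 2 the members' median at P6 was -2.68, and without P1 GFP- replicate 2 that at P1 was -1.74. From P1 to P6 in GFP+ cells, 3 of the 5 members tested rose (*Acan*, *Chad* and *Epyc*) and 1 fell (*Matn4*), against 12.1% and 8.31% of 17213 genes (20.4% in either direction), with medians of 2.67 and -0.0024. In GFP- cells 3 of 8 rose (*Acan*, *Chad* and *Matn4*) and 1 fell (*Matn1*), against 11.3% and 7.87% of 18920 genes (19.1% in either direction), with medians of 1.09 and -0.022. With library totals in place of TMM scaling the median over all genes in GFP- cells moved to -0.214, and 33.6% of the calls were higher in place of 58.9%, but *Acan*, *Chad* and *Matn4* kept their direction. In the test of the interaction the median moved from 0.031 to 0.155, and 67.0% of the calls were higher in place of 56.4%. The study's stricter criteria (p and adjusted p below 0.01 and a fold change above 4) were applied here to the edgeR results alone. The paper also asked that a gene pass in both DESeq and Cufflinks, and filtered its enriched genes by expression level. By these cut-offs 5 members were lower in GFP+ cells at P1, where 17.8% of all genes passed, and 1, *Matn4*, at P6, where 7.98% passed. With age 1 member, *Epyc*, rose in GFP+ cells (2.56% of all genes passed) and 2, *Acan* and *Chad*, in GFP- cells (1.85%), and 0 passed in the interaction (1.26%). The members that passed the filter on low counts are only part of the list, so these counts do not describe all 9. The comparisons share libraries in pairs and are not independent of each other. In a mixture of cells, fewer cells of a type and less RNA per cell cannot be told apart for any of these differences.

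Levels of different genes were compared per kilobase of exon, as CPM per kb. In the P1 GFP+ cells *Matn4* led with 33.1 ± 0.205, before *Epyc* with 21.4 ± 0.478, *Matn1* with 1.74 ± 0.102 and *Chad* with 0.521 ± 0.163 (SD, n = 2), and none of these ranges overlapped. In the P1 GFP- cells the order was *Epyc* (138 ± 99.8), *Matn4* (39.9 ± 5.99), *Matn1* (8.45 ± 1.98), *Chad* (3.77 ± 0.135) and *Acan* (1.48 ± 0.216), again without overlap. In the P6 GFP+ cells *Epyc* led with 128 ± 57.2, while *Matn4* (7.89 ± 4.58) and *Chad* (7.55 ± 6.23) overlapped, as did *Acan* (1.68 ± 1.73) and *Matn1* (1.47 ± 0.494). In the P6 GFP- cells *Epyc* (283 ± 33.7), *Matn4* (67.4 ± 6.81), *Chad* (41.3 ± 2.17), *Acan* (19.2 ± 1.54) and *Matn1* (2.77 ± 0.122) were separate. Among 34391 genes with an exon length *Epyc* ranked 100th in the P6 GFP- cells and 315th in the P6 GFP+ cells, against 254th in P1 GFP- and 2946th in P1 GFP+ cells. *Acan* moved from rank 13386 in P1 GFP- to 3149 in P6 GFP- cells. These values follow from the CPM and exon length and carry no test.

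**Figure D3:**
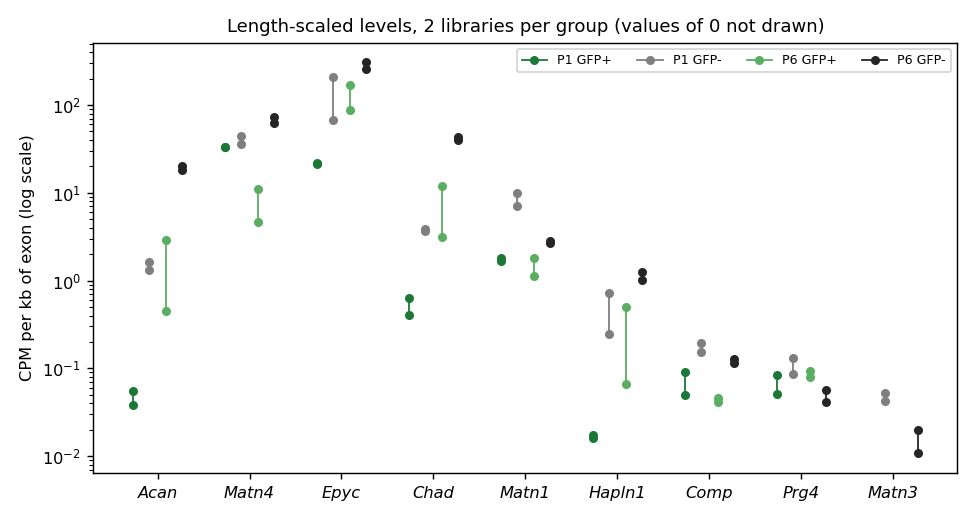
Length-scaled level (CPM per kilobase of exon, log axis) of the 9 genes, with 2 libraries per group joined by a line and colours for the 4 groups; libraries at 0 are not drawn. *Epyc* is the highest in 3 groups and *Matn4* in P1 GFP+ cells, while *Comp*, *Prg4* and *Matn3* lie at or below 0.196 everywhere.

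The level in the GFP+ libraries was next set against the GFP- mean of the same age, beside markers of cells that the GFP- fraction holds. At P1 *Acan* stood at 2.61% and 3.69% of the GFP- mean in the GFP+ libraries and *Hapln1* at 3.58% and 3.30%. The 8 mesenchyme markers ran from 1.33% to 5.41% in replicate 1 and from 1.54% to 6.91% in replicate 2, so these members lay within that range. *Epyc* (15.3% and 15.8%), *Chad* (16.9% and 10.8%), *Matn1* (21.4% and 19.7%) and *Matn4* (82.7% and 83.4%) lay above it. In the same libraries the medians were 23.7% and 12.1% for Schwann cell and 10.1% and 9.79% for neuron markers. They were 6.46% and 3.38% for osteoblast markers and 6.31% and 3.90% for blood and macrophage markers.

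At P6 the markers ran from 0% to 5.88% in replicate 1 (median 4.39%) and from 13.8% to 41.4% in replicate 2 (median 16.2%). *Acan* was at 2.35% and 15.1%, within the range in both libraries, but the 0% in replicate 1 was *Tbx15* alone. The other markers ran from 3.67% to 5.88% in that library, all above *Acan*. *Matn4* was at 6.89% and 16.5%, *Chad* at 7.63% and 29.0%, and *Hapln1* at 5.95% and 44.3%. The top of the replicate 2 range was *Tbx15* alone, and the other markers ran from 13.8% to 19.9% there. *Matn4* was above the range in replicate 1 and among these other markers in replicate 2. *Chad* was above the range in replicate 1, and in replicate 2 above every marker but *Tbx15*. *Hapln1* was above every marker in both libraries, by a small margin over the highest. *Epyc*, at 30.9% and 59.5%, and *Matn1*, at 40.6% and 65.8%, exceeded every mesenchyme marker in both libraries. Other marker lists were higher in these libraries, with medians of 52.6% and 131% for Schwann cell and 39.8% and 68.1% for neuron markers. The medians were 4.35% and 14.7% for osteoblast markers and 6.98% and 19.8% for blood and macrophage markers. The replicate 2 to replicate 1 ratio in the P6 GFP+ cells was 6.43 for *Acan*, 7.44 for *Hapln1* and 3.80 for *Chad*, against 2.40 for *Matn4*, 1.92 for *Epyc* and 1.62 for *Matn1*. The same ratio had a median of 3.35 over the 7 mesenchyme markers with counts in both libraries and of 4.07 over the osteoblast markers. The part of such cells in the GFP+ levels was not tested.

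**Figure D4:**
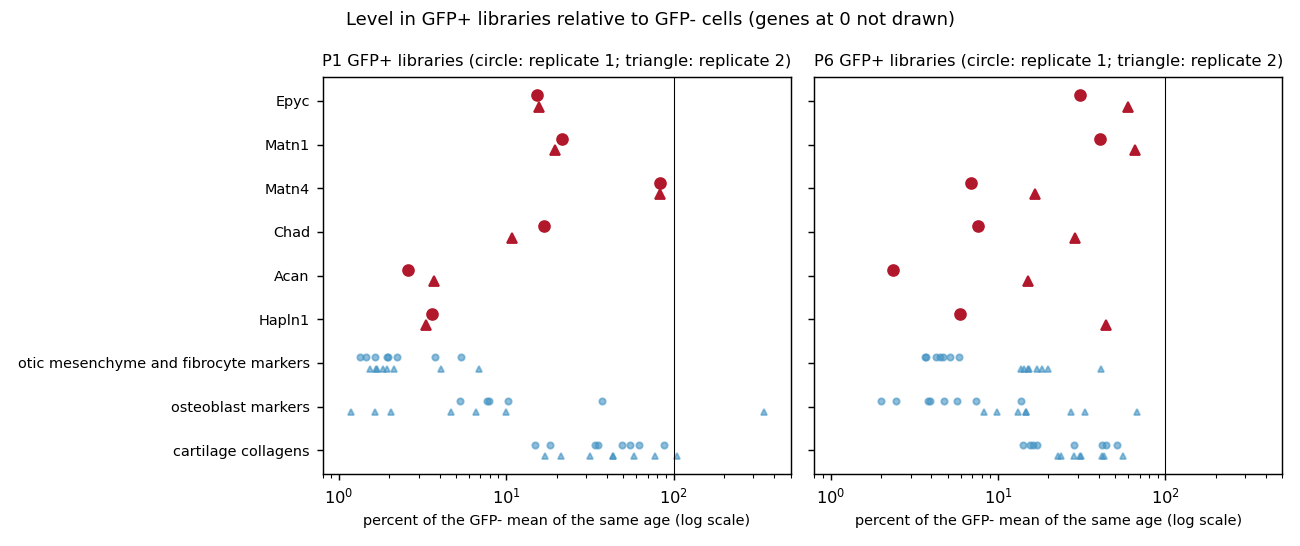
Level in each GFP+ library as a percent of the GFP- mean of the same age (log axis), for 6 cartilage matrix genes (large red points) and for the genes of 3 lists (small blue points); circles are replicate 1 and triangles replicate 2, and points below 0.8% are not drawn. Compared within the same replicate, *Epyc* and *Matn1* lie to the right of every mesenchyme marker at both ages. *Acan* lies among these markers, except in P6 replicate 1, where it lies to the left of all those drawn.

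The members also moved beside the lists of related genes to different degrees. Of 8 cartilage collagens, 5 at P1 and 7 at P6 were lower in the GFP+ fraction, with medians of -1.18 and -1.91. Most of this list are fibril and fibril-surface collagens, the network that aggrecan fills. *Col9a1* led at P1 with -2.55 (SE 0.13, adjusted p = 4.13e-05) and *Col2a1* at P6 with -2.42 (SE 0.47, adjusted p = 0.0147). From P1 to P6, 6 of the 8 rose in GFP- cells, with a median of 1.35, led by *Col11a2* with 1.85, and 2 rose in GFP+ cells, *Col9a1* with 1.72 (SE 0.23, adjusted p = 0.0102) and *Col11a2* with 1.04 (SE 0.21, adjusted p = 0.0279). *Col10a1*, the collagen of hypertrophic cartilage, was between 0.281 and 1.21 CPM in all libraries and was not called.

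Among the chondrocyte transcription factors the fractions split. *Sox6*, a partner of SOX9, was higher in GFP+ cells by 2.97 at P1 (SE 0.10, adjusted p = 1.35e-05) and 1.99 at P6 (SE 0.21, adjusted p = 0.00279), and *Sox9* by 0.87 at P1 (SE 0.17, adjusted p = 0.00745). *Runx2*, which drives hypertrophy and bone formation, was lower by -5.05 at P1 (SE 0.19, adjusted p = 1.6e-05), and *Nkx3-2* led at P6 with -4.10 (SE 0.42, adjusted p = 0.00249). At P1, 4 of 9 tested were higher and 3 lower, and at P6 3 of 10 were higher and 4 lower. In GFP- cells *Nkx3-2* rose by 4.04 (SE 0.47, adjusted p = 0.00223) and *Runx2* by 2.71, and *Barx2* fell by 2.37. In all 3 of 10 rose and 1 fell there, and 2 of 7 rose in GFP+ cells, led by *Runx2* with 3.67 (SE 0.87, adjusted p = 0.0419). *Nkx3-2* had only 0.185 and 0.586 CPM in the P1 GFP- and 0.225 and 0.435 CPM in the P6 GFP+ libraries. *Barx2* had only 0.146 and 0.177 CPM in the P6 GFP- libraries.

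Of the 16 other cartilage and growth plate genes, 10 of 15 tested were lower in GFP+ cells at P1 and 9 of 16 at P6. *Cytl1*, a secreted cytokine-like protein of chondrocytes, led at P1 with -5.92, and *Snorc*, a transmembrane proteoglycan, at P6 with -3.50. The 1 gene that was higher at both ages was *Fgfr3* (6.55 at P1 and 5.05 at P6), a receptor of growth plate cartilage that is also a supporting cell marker. In GFP- cells 9 of 16 rose and 0 fell, led by *Snorc* (5.38) and *Ucma*, a growth plate matrix protein (4.28). *Snorc* had only 0.0264 and 0.0951 CPM in the P1 GFP- libraries. In GFP+ cells 6 of 13 rose and 0 fell, and *Ucma* led with 6.67 (SE 0.27, adjusted p = 0.00176).

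Of the lecticans and hyaluronan partners, the relatives of aggrecan and link protein, 4 of 9 tested were lower in GFP+ cells at P1 and 3 higher. *Tnfaip6*, a hyaluronan-binding protein, was lowest with -6.92, versican (*Vcan*) had -4.32, and the hyaluronan synthase *Has2* was highest with 2.49. At P6, 5 of 9 were lower, led by *Tnfaip6* with -3.44, and only *Cd44*, the hyaluronan receptor, was higher (0.71). In GFP- cells *Bcan*, brevican, rose by 3.30 (SE 0.12, adjusted p = 5.13e-05) and *Vcan* fell by 1.91 on the log2 scale (SE 0.19, adjusted p = 0.00142), opposite in direction to *Acan* in the same libraries. In all 2 of 10 rose and 5 fell there. In GFP+ cells *Tnfaip6* rose by 2.82 and *Has2* fell by 6.32, with 1 of 9 higher and 2 lower. *Has2* had only 0.113 and 0.402 CPM in the P6 GFP+ libraries.

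The small leucine-rich proteoglycans, the family of *Epyc*, were mostly lower in GFP+ cells, 9 of 11 at P1 (median -3.37) and 8 of 11 at P6 (median -2.26), led at both ages by *Bgn*, biglycan, with -5.26 and -3.00. *Chadl*, a relative of chondroadherin, was higher at both ages (1.50 and 0.75). With age 8 of 11 rose and 1 fell in GFP+ cells, led by *Kera*, keratocan, with 6.21. *Kera* had only 0.0436 and 0 CPM in the P1 GFP+ libraries. In GFP- cells 7 of 12 rose and 2 fell, led by *Omd*, osteomodulin, with 3.74. *Podn*, podocan, fell in both fractions (-1.40 and -1.78).

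*Thbs1*, of the thrombospondins to which COMP is related, was higher in GFP+ cells at P1 by 3.48, fell there with age by 2.38 and rose in GFP- cells by 1.55. *Thbs2* was lowest in GFP+ cells at both ages (-4.08 and -3.14). In all, 1 of 4 was higher and 2 lower at P1, 0 higher and 3 lower at P6, 2 of 3 tested fell with age in GFP+ cells, and in GFP- cells 1 rose and 1, *Thbs3*, fell by 1.11. Of the proteases and the inhibitor that act on aggrecan and matrilins, 5 of 6 were lower in GFP+ cells at P1, led by *Timp3* (-3.93), and 6 of 7 at P6, led by *Mmp13* (-4.06). *Adamts15* was higher at both ages (0.40 and 1.47). With age 4 of 6 rose in GFP+ cells, led by *Timp3* (2.69), and 3 of 7 in GFP- cells, led by *Mmp13* (4.10). *Mmp13* had only 0.158 and 0.127 CPM in the P1 GFP- and 0.113 and 0.134 CPM in the P6 GFP+ libraries.

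In the test of the interaction, in which *Matn4* was the member called, *Thbs1* had -3.95 (SE 0.32, adjusted p = 0.000928) and *Has2* -4.97 (SE 0.58, adjusted p = 0.00339), which is the direction of *Matn4*. *Col9a2* (-1.28) was the 1 of 8 collagens called. *Barx2* (3.92) led 2 factors of 10 in the other direction, with *Sox6* (-0.99) lower. *Barx2* was at or below 0.301 CPM in the P1 GFP+, P6 GFP+ and P6 GFP- libraries. *Ucma* (2.37) led 2 of 16 other cartilage genes, *Tnfaip6* (3.48) was the lectican partner called higher, *Dcn* (1.53), decorin, was the 1 of 12 leucine-rich proteoglycans, and *Timp3* (2.26) led 4 of 7 in the protease list. Of the mesenchyme markers *Coch* (2.28) was called, of the osteoblast and hair cell markers 0 of 8 each, and of the supporting cell markers *Slc1a3* (1.23). Of the Schwann cell markers 2 were called, led by *Pou3f1* (3.31), of the neuron markers 2, led by *Tubb3* (4.59), and of the blood and macrophage markers 0 of 6.

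The rise of *Acan* and *Chad* in GFP- cells went with that of osteoblast markers, genes of bone-forming cells. Of these 7 of 8 rose in GFP- cells, with a median log2 difference of 3.69, and their summed level was 119 and 179 CPM at P1 and 1373 and 1301 CPM at P6. *Bglap*, osteocalcin, led with 8.01 (SE 0.33, adjusted p = 6.59e-05), from only 0.0528 and 0.0634 CPM in the P1 GFP- libraries. The mesenchyme markers rose in 4 of 8 cases, with a median of 0.86, below the log2 differences of 3.88 for *Acan* and 3.64 for *Chad*. In GFP+ cells 6 of 7 osteoblast markers and 5 of 7 mesenchyme markers rose, with medians of 4.62 and 2.78, when their summed levels were 9.88 and 7.15 CPM at P1 and 53.2 and 207 CPM at P6 for the osteoblast list. The part of osteoblasts in the levels of *Acan* and *Chad* was not tested.

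The other marker lists moved as follows. *Hes5*, a Notch effector, led the supporting cell markers, which were higher in the GFP+ fraction (8.17 at P1, 7.43 at P6), with *Slc1a3* lower at P1 (-1.03). *Atoh1* led the hair cell markers (4.61 and 6.48), with only 0.0162 and 0 CPM in the P6 GFP- libraries. *Otor* at P1 (-6.02) and *Col3a1* at P6 (-3.45) led the mesenchyme markers, and *Dmp1* the osteoblast markers (-6.93 and -4.28). Of 6 Schwann cell markers 1, *Sox10*, was higher in GFP+ cells at both ages (1.31 and 1.82) and 5 were lower at P1, led by *Pou3f1* (-4.24). Of 6 neuron markers 6 were lower at P1, led by *Elavl3* (-4.44), and at P6 *Tubb3* was higher (1.03) and *Nefl* lower (-1.08). Of 6 blood and macrophage markers 6 were lower at P1, led by *Hbb-b1* (-5.16), and 5 at P6, led by *Csf1r* (-3.31).

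With age in GFP+ cells, 5 of 6 Schwann cell markers rose, led by *Pou3f1* (5.19), 1 of 6 neuron markers, *Tubb3* (2.77), and 3 of 6 blood and macrophage markers, led by *Hba-a1* (2.92). *Otor* led the mesenchyme markers (3.74) and *Ibsp* the osteoblast markers (9.50), from only 0.0655 and 0.161 CPM of *Ibsp* in the P1 GFP+ libraries. Of the supporting cell markers 2 rose, led by *Gjb2* (1.51), and 3 fell, led by *Hes5* (-2.97), and 2 hair cell markers fell, led by *Atoh1* (-3.07). In GFP- cells 3 of 6 neuron markers fell, led by *Prph* (-3.61), 4 Schwann cell markers rose, and 2 blood and macrophage markers rose, led by *Csf1r* (1.55). Of the supporting cell markers 3 rose there, led by *S100a1* (1.36), and 2 fell, led by *Hes5* (-2.17), 3 hair cell markers fell, led by *Atoh1* (-5.06), and *Coch* led the mesenchyme markers (1.19). Their part in the members' levels was not tested.

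**Figure D5:**
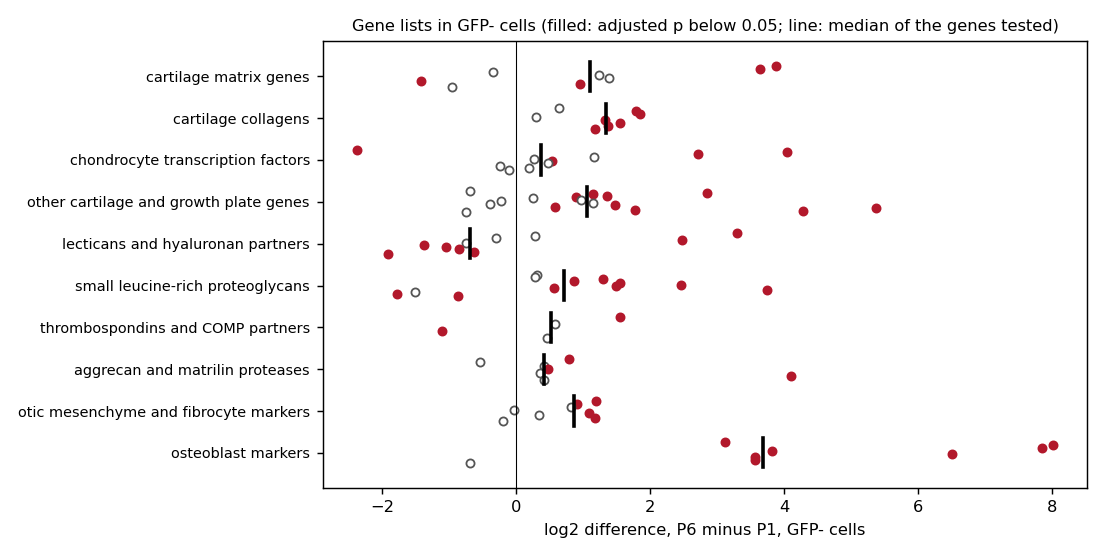
log2 differences between P6 and P1 in GFP- cells for the genes tested in the cartilage matrix set and 9 related or marker lists, with filled points for adjusted p below 0.05 by edgeR and a black line at each list's median. The osteoblast list has the rightmost median, 3.69, and *Acan* and *Chad* are the rightmost points of the cartilage matrix genes.

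The lists were also counted without the libraries that stood apart. Without P6 GFP+ replicate 2, 1 of the 84 list genes called between the fractions at P6 and 0 of the 55 called with age in GFP+ cells were no longer called. With age in GFP+ cells the median of the chondrocyte transcription factors was then -0.47 in place of 0.040. That of the other cartilage genes was 0.60 in place of 1.29, and that of the lecticans and hyaluronan partners -1.77 in place of -0.83. The medians of the mesenchyme and osteoblast markers in that comparison were 1.26 and 3.23, in place of 2.78 and 4.62. Between the fractions at P6, the medians of the Schwann cell and neuron markers were then -0.93 and -1.31, in place of -0.14 and -0.92. Without P1 GFP- replicate 2, 0 of the 95 list genes called at P1 were lost, and 6 of 67 called with age in GFP- cells, among them *Hes5* (-1.46, adjusted p = 0.240) and *Atoh1*, which was then too low for the test. In the interaction 8 of 21 were lost in that setting, among them *Col9a2*, *Barx2*, *Sox6*, *Coch* and *Pou3f1* (adjusted p 0.0688, 0.0626, 0.134, 0.0985 and 0.0885). No list gene called with all libraries and still tested changed direction in these settings.

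Over the 8 libraries the levels of *Acan* and *Chad* followed each other (Pearson's r of log2(CPM + 1) = 0.985), and *Hapln1* and *Epyc* followed *Acan* (0.950 and 0.918). *Matn1* and *Matn4* stood apart, with r between 0.115 and 0.503 to the other 4 genes and 0.521 to each other. The 8 libraries form 4 groups, so these values mainly compare group means and are a description. Among 15476 genes with a mean of at least 1 CPM, those most like *Acan* were *Trim16*, *Cilp2* and *Alpl* (r = 0.997, 0.996 and 0.995). *Cilp2* is a cartilage matrix protein and *Alpl* the bone alkaline phosphatase. Those most like *Chad* were *Wfdc1*, *Mfap3l* and *Vit* (0.996, 0.994 and 0.994), and those most like *Hapln1* were *Thy1*, *Ankrd34b* and *Rgs4* (0.992, 0.990 and 0.986). For *Epyc* they were *Metrnl*, *Fndc5* and *Thnsl2* (0.984, 0.983 and 0.974), for *Matn1* they included *Fstl5* and *Csmd3* (0.996 and 0.993), and for *Matn4* *Tle3*, *Zbtb10* and *Gm5931* (0.987, 0.986 and 0.983).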

How the data were processed

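Libraries of sorted cochlear cells of *Lfng-GFP* mice were grouped by the age (P1 or P6) and fraction in their labels, 2 to each of 4 groups. What was deposited for each library is a table of raw counts by Ensembl gene. According to the methods and processing notes, the authors aligned paired-end reads of poly-A RNA to mm9 (NCBIM37) with TopHat (1.4.0 in the processing notes) and counted them with HTSeq, without normalization. The authors' tests used DESeq 1.9.2 and, on a separate alignment, Cufflinks. Reads on no gene, on several genes or at several places are listed apart and were left out. The counting mode is not given in the sources used here.

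CPM is the count divided by the library's total on genes. The NCBIM37 annotation held 34391 of the 36536 genes and gave symbols, positions and exon lengths, and the promoter table was RefSeq on GRCm38.p6, which is used only for the sequences and motif shares. Each comparison was fitted on its 4 libraries, and the interaction on 8, with R 4.3.3 and edgeR 4.0.16 (filterByExpr with minimum count 10 and minimum total 15, TMM, quasi-likelihood test, Benjamini-Hochberg adjustment over all genes tested, calls at an adjusted p below 0.05). The standard error is the log2 difference divided by the square root of F. Figures were drawn with Python 3.11.15 and matplotlib 3.10.9. The procedure was tested on simulated data. Depth was 17769024 to 67695039 counts, so members and list genes with few counts are known with little precision, and limits from counts cover counting error only.

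The members and the 14 gene lists (118 entries, all with counts) were chosen with earlier results of these data known. The text names all members, the called gene with the largest change in each direction of each list and comparison, others needed for a list's account, and the 3 genes most like each member above 1 CPM, apart from some items not reported here. The alternatives were DESeq2 1.42.0 (size factors or its test), library totals, no filter, all 8 libraries, a replicate block, the study's criteria (p and adjusted p below 0.01, fold change above 4) and leaving out each library. A crossed block was chosen after seeing the data.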

Additional observations from a re-analysis of the deposited data

Results flagged for a closer look

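*Matn4* was set apart because its effect of fraction differed between the ages by the test of the difference itself. The log2 ratio of GFP+ to GFP- cells was -0.16 at P1 and -3.11 at P6, and the interaction was -2.96 (SE 0.47, adjusted p = 0.0110 by edgeR's quasi-likelihood test). Its adjusted p ranged from 1.02e-27 without the filter on low counts to 0.0622 without P6 GFP- replicate 1 over 13 alternatives, and its value from -3.69 to -2.49. With 2 libraries per group, single libraries far from their group could not be sought by a test.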

How the results depend on the processing

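Over 437 alternatives of the members' log2 differences 383 kept direction and side of the threshold, 26 passed newly, 23 no longer passed and 5 reversed, none of which was past the threshold. These were *Matn1* in GFP+ cells with age (0.12 without P6 GFP+ replicate 1, range without single libraries -0.51 to 0.12) and, in the interaction, *Acan* (-0.46, range -0.46 to 2.16) and *Chad* (-1.03, range -1.03 to 0.84) without P6 GFP+ replicate 2, *Comp* (0.23, range -0.63 to 0.23) without P1 GFP+ replicate 1 and *Chad* (-0.0085) without P1 GFP+ replicate 2. Under the study's criteria 1 member was lower in GFP+ cells at P6 in place of 4, 1 rose and 0 fell with age in GFP+ cells in place of 3 and 1, 0 fell in GFP- cells in place of 1, and 0 were called in the interaction in place of 1. Without the filter 5 rose in GFP- cells in place of 3, and 5 were called in the interaction, where the DESeq2 test called 2. Leaving out single libraries gave 1 to 6 members lower in GFP+ cells at P6, 1 to 4 that rose with age in GFP+ cells, 3 to 5 that rose and 0 to 1 that fell in GFP- cells, and 0 to 4 called in the interaction, and at P1 5 to 6 lower. The cause of these changes was not tested, apart from the fewer samples or genes that a setting itself brings.

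Between groups, the differences of replicate 2 from replicate 1 had correlations over genes from -0.258 to 0.0894. With a single such difference per group, these values cannot show whether replicate numbers pair the samples. With the replicate block, the members' counts were 5 lower at P1, 4 lower at P6 and 1 in the interaction, as without it, and no member's call changed, and the calls over all genes in the interaction went from 1228 to 750. A crossed block called 5 members as higher in GFP- cells with age and 5481 genes in place of 3619. Over all genes the interaction had 2304 calls with the DESeq2 test and 3201 without the filter, the age comparisons without the filter 5854 in GFP+ cells in place of 3511 and 5444 in GFP- cells, and the study's criteria left 3331 of 10022 at P1, 1459 of 6122 at P6, 441 and 350 with age, and 242 in the interaction. Leaving out single libraries gave 6412 to 11647 calls at P1, 1940 to 9806 at P6, 680 to 9491 and 1140 to 4867 with age in GFP+ and GFP- cells, and 337 to 2991 in the interaction. Depth limits *Comp*, *Matn3*, *Prg4* and *Hapln1* in GFP+ cells most.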
